A study of Mus musculus with 6 samples.

Results

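Antiviral interferon-stimulated genes are the genes that cells switch on when interferon reaches them and whose products block steps of viral growth. The set described here was a list of 41 mouse genes matched by symbol and drawn up with earlier results of these data known: Isg15 and the enzymes around it, the Ifit and Oas families, nucleic acid sensors, and other effectors such as Rsad2, Mx1 and Bst2. All 41 symbols were in the feature list of 3 of the 6 libraries, which held 54752 features. In the feature list of the other 3 libraries, with 32285 features, 39 were found and Mx1 and Mx2 were not, so these genes have no value there.

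The study measured single-cell RNA from lymph nodes, inguinal and axillary, of C57Bl/6 mice in 3 arms: tumour-free (naive) mice, mice bearing YUMM1.7 melanoma, and mice bearing YUMMER1.7 melanoma. YUMM1.7 is a transplantable mouse melanoma line, and YUMMER1.7 is its ultraviolet-mutated derivative with a higher mutation load. For each arm, nodes of several mice were pooled, digested with collagenase and split by magnetic beads. The enriched fraction was selected for CD11b or CD11c, which mark myeloid and dendritic cells, and the other fraction is labelled as de-enriched for CD45, the pan-leukocyte marker. The protocol of the latter libraries speaks of positive enrichment of stromal cells with CD45 beads, and most of their cells carried B, T or plasma cell markers. It is called the CD45-labelled fraction here. About 10000 cells per condition went into a 3′ droplet assay (Chromium GEM-X v4), with 1 library for each fraction and arm. With 1 library per group there is no replicate, so no test between arms was possible, and the intervals given below cover counting error only. An arm, its pool of mice and its library cannot be told apart.

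Type I interferons bind the receptor IFNAR1/IFNAR2, and the kinases JAK1 and TYK2 then pass the signal to transcription factors, among them STAT2 and IRF9. These act at interferon-stimulated response elements, repeats of GAAA separated by a pair of bases, in the promoters of these genes. In lymph nodes, plasmacytoid dendritic cells and sinus macrophages are known sources of interferon, and interferon acting on cDC1 is known to aid cross-priming of T cells against tumours.

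The promoters of several members hold that repeat, by which the set was not chosen. The stretches around it are shown because it was more frequent among the members searched than among all genes. RefSeq promoter windows (GRCm38.p6, 250 bases before to 50 after a start) were on hand for 30 of the 41 genes. The letters GAAA, any 2 bases, then GAAA again, on either strand, were found in a window of 17 of these 30 genes (56.7%) and of 1079 of 27025 genes with a window (3.99%). Capitals mark the matched letters, overlapping matches are run together, and TTTC is GAAA read on the other strand. The Isg15 stretch, at chr4:156200865-156200906 on the minus strand, runs from 88 to 47 bases before the start. It holds 3 overlapping matches, which begin 78, 72 and 66 bases before the start.
Isg15: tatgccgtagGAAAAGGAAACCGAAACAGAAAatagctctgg
The Ifit1 stretch, at chr19:34640775-34640823 on the plus strand, and the Ifit3 stretch, at chr19:34583363-34583426 on the same strand, hold 2 separate matches each.
Ifit1: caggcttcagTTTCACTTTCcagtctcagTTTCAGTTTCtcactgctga
Ifit3: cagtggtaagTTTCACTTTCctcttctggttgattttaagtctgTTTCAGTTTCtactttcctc
Its neighbour Ifit3b, at chr19:34607759-34607822, has the same 64 of 64 bases. The Oas1a stretch, at chr5:120907526-120907555 on the minus strand, ends at the start itself, and 28 of 28 bases compared in Oas1g were identical.
Oas1a: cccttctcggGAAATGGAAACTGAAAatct
The Bst2 stretch is at chr8:71537577-71537612 and the Rsad2 stretch at chr12:26456553-26456582, both on the minus strand.
Bst2: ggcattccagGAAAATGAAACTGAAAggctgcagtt
Rsad2: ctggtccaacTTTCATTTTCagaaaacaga
A match also lay in the windows of Oas3, Ifi213, Phf11b, Slfn5, Slfn8, Trim30a, Ddx58, Eif2ak2 and Ifih1. The windows of Cmpk2, Dtx3l, Herc6, Ifi209, Ifi44, Ifit2, Isg20, Lgals3bp, Oasl1, Oasl2, Phf11d, Samd9l and Xaf1 did not hold these letters. The remaining 11 genes, Mx1, Mx2, Oas2, Usp18, Rtp4, Dhx58, Zbp1, Parp9, Parp14, Ifi27l2a and Ifi204, were not searched.

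After filtering, the enriched libraries held 9957 (naive), 7090 (YUMM1.7) and 6464 (YUMMER1.7) cells, with a median of 6716, 9401 and 10149 UMIs per cell. The CD45-labelled libraries held 12358, 8259 and 6565 cells, with medians of 4151.5, 4611 and 4894 UMIs. Pairs of libraries shared between 5 and 38 cell barcodes. Cells were clustered without the members and without other interferon-regulated genes, and classes were named from marker genes. The UMIs of each gene were added up over the cells of a class in a library and are given as CPM, that is per 1000000 UMIs of that class, a scale that suits comparisons of 1 gene between libraries. A member is called higher or lower where the ratio of its CPM values reached 1.5-fold in a class, among members with at least 50 UMIs in the 2 libraries together. RNA of other cells was present in each class at a low level and differed between libraries: in T cells of the enriched fraction the neutrophil gene S100a8 stood at 23.1, 24.9 and 76.1 CPM, and in B cells of the CD45-labelled fraction the stromal chemokine Ccl21a stood at 1.44, 39.7 and 76.1 CPM (naive, YUMM1.7, YUMMER1.7, the order used throughout). Its part in the results was not tested. Fewer transcribing cells and less RNA per cell cannot be told apart in such sums.

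In the enriched fraction the members were higher in nodes draining either melanoma than in naive nodes in most myeloid classes. Over 10 classes, 95 of 339 member-class pairs (28.0%) were higher in YUMM1.7 than in naive and 10 (2.95%) were lower. Over all genes in the same classes, 4.42% of pairs were higher and 6.46% were lower. For YUMMER1.7 against naive, 116 of 342 pairs (33.9%) were higher and 7 (2.05%) were lower, against 6.52% and 10.1% of all pairs. Both comparisons use the same naive library, so they are not independent. Without neutrophils, which are described by cluster, 78 of 305 pairs (25.6%) and 107 of 307 (34.9%) were higher, against 4.39% and 6.11%. Among the other classes the counts were largest in cDC2 and non-classical monocytes, and the share was smallest in CCR7+ migratory dendritic cells.

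**Figure D1:**
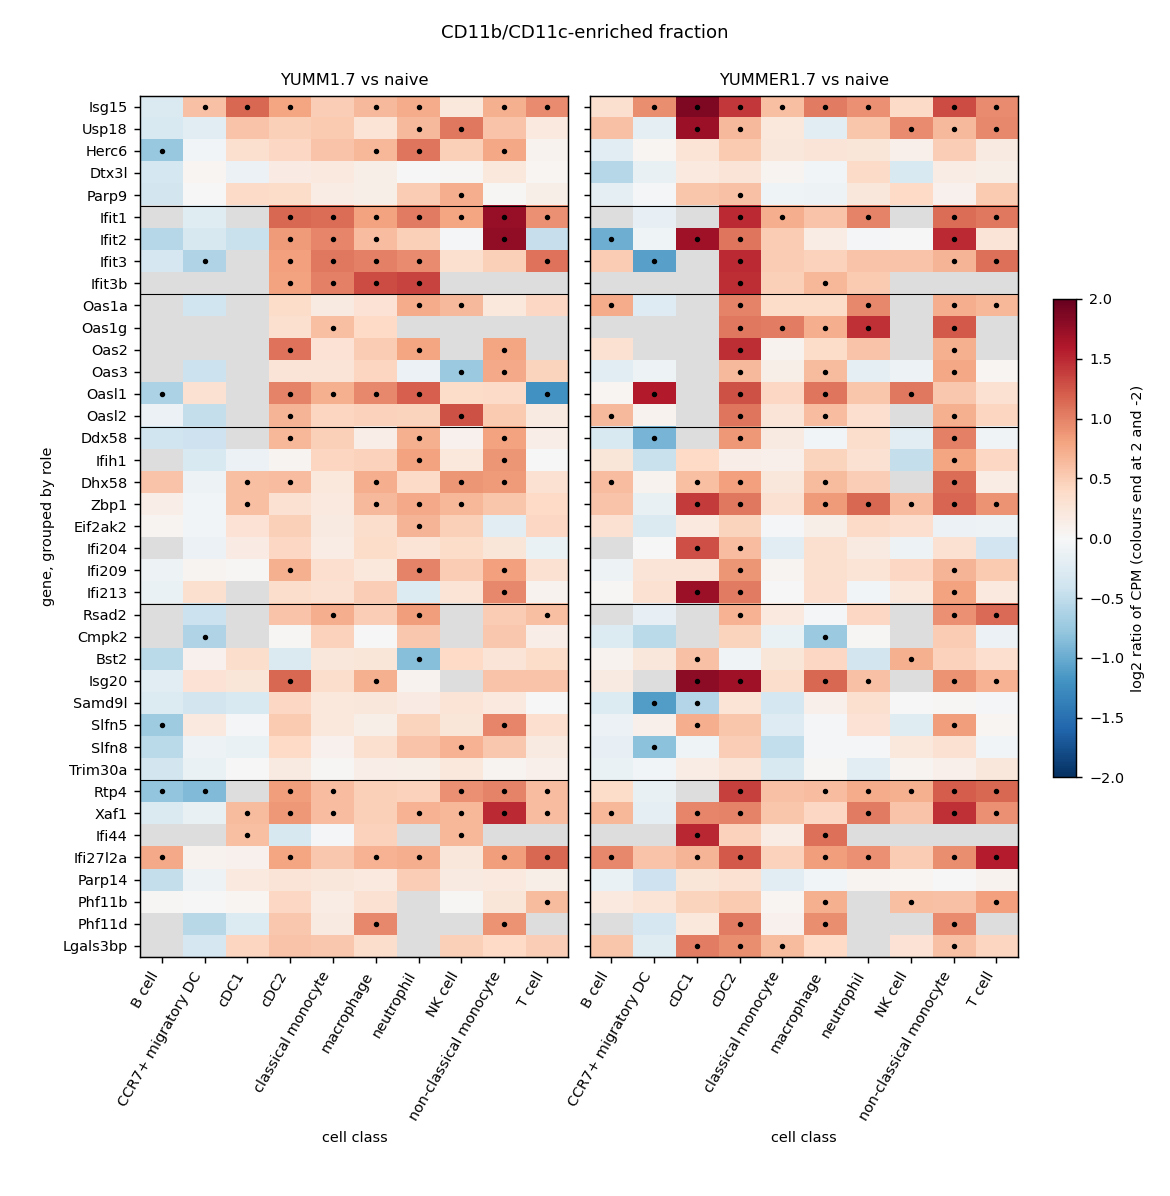
Log2 ratio of CPM to the naive library for each member and class of the enriched fraction, YUMM1.7 and YUMMER1.7 side by side; members are grouped by role, dots mark a fold of at least 1.5 in either direction, and grey cells had fewer than 50 UMIs. Isg15 and Ifi27l2a are higher across most classes, while CCR7+ migratory dendritic cells hold few called members.

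Type 2 conventional dendritic cells (cDC2), which present antigen mainly to CD4 T cells, had the most members called in YUMMER1.7. All 39 passed the UMI minimum, 15 were higher in YUMM1.7 and 26 in YUMMER1.7, and none was lower. Of all genes, 5.95% and 9.63% were higher and 8.08% and 10.6% lower. The median log2 ratio of the 39 was 0.48 and 0.87, beside 0.05 and 0.02 over all genes. In non-classical monocytes, the patrolling Ly6C-low monocytes, 16 of 36 and 24 of 37 were higher and none was lower, against 4.74% and 7.0% of all genes higher and 5.99% and 9.32% lower. In cDC1, the cross-presenting dendritic cells, 5 of 25 were higher in YUMM1.7 and 14 of 26 in YUMMER1.7, against 4.91% and 5.94%. The latter contrast also had 1 member called lower, Samd9l, against 8.2% of all genes. Macrophages had 12 and 14 of 39 higher (4.41% and 5.13% of all genes), classical monocytes 9 and 4 of 39 (4.39% and 6.96%), T cells 8 and 12 of 34 (3.08% and 4.21%), and NK cells 11 of 32 and 6 of 27 (3.36% and 3.68%). CCR7+ migratory dendritic cells, which have left the tissue for the node, had 1 of 35 and 2 of 34 higher, against 4.74% and 7.72%, and 3 and 4 lower, against 6.2% and 11.3%. B cells had 1 of 26 and 5 of 32 higher, against 3.55% and 3.51%, and 4 and 1 lower, against 7.44% and 8.5%.

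The cDC2 class joined 2 clusters, one of 821, 1130 and 613 cells led by Ctnnd2 and Cd209a, and one of 317, 113 and 60 cells led by Mmp12 and Dcstamp. Each cluster on its own had 13 members higher in YUMM1.7, of 39 and of 32 (5.06% and 5.68% of all genes), and in YUMMER1.7 they had 24 of 39 and 27 of 33 higher (8.85% and 9.01%). Isg15 stood at 78.9, 125 and 186 CPM in the first and at 41.4, 35.3 and 108 CPM in the second.

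Summed over the members of the enriched fraction, the level was highest in classical monocytes, with 6378, 8280 and 7229 CPM, and the order of the arms differed by class. In non-classical monocytes the sums were 4040, 6192 and 6487 CPM, in macrophages 3774, 4950 and 4932 CPM, and in cDC2 1936, 2689 and 3239 CPM. cDC1 had 1234, 1355 and 1807 CPM and T cells 1529, 2066 and 2313 CPM. CCR7+ migratory dendritic cells had 1657, 1637 and 1752 CPM, a span smaller than that of any class just named. Classical monocytes therefore started from the highest naive level and were higher in YUMM1.7 than in YUMMER1.7, whereas cDC1 and cDC2 were highest in YUMMER1.7. The small YUMMER1.7 difference of classical monocytes, a log2 ratio of 0.18, turned to -0.046 under a stricter filter on cells. Without the abundant Bst2, Isg15 and Ifi27l2a it was 0.028, while the YUMMER1.7 ratio of cDC2 was 0.66 in place of 0.74.

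**Figure D2:**
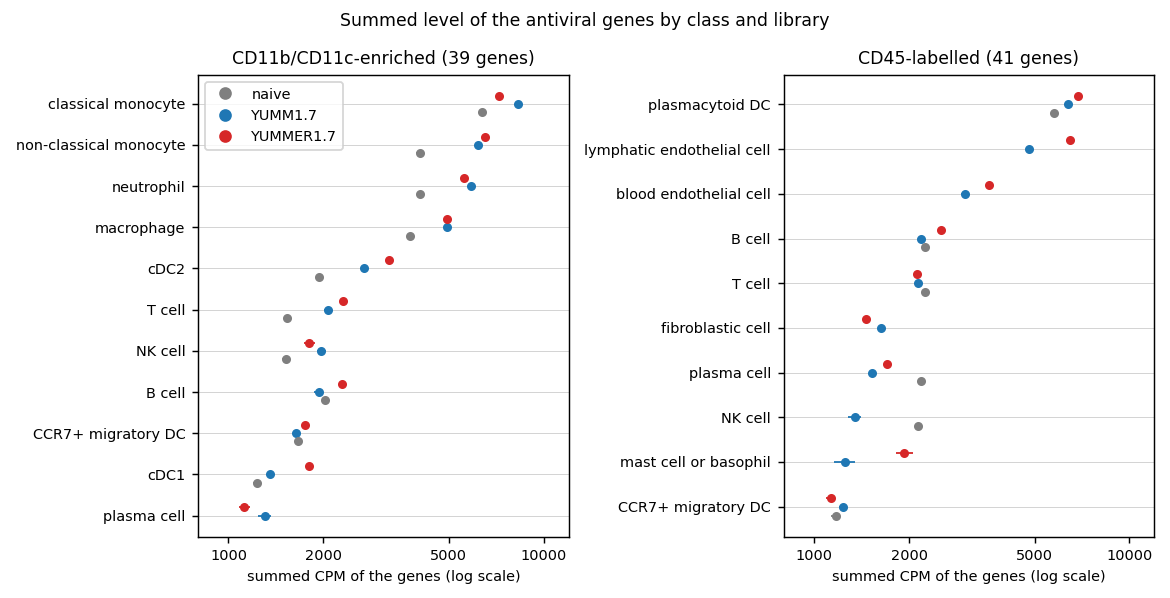
Summed CPM of the members per class and library, as points with 95% Poisson intervals (counting error only), for both fractions. Classical monocytes lie highest in the enriched fraction, and cDC2 go from 1936 CPM in naive to 3239 CPM in YUMMER1.7.

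Isg15, a ubiquitin-like protein that is attached to other proteins after interferon, was called in more classes than any other member in the YUMMER1.7 contrast, 8 of 10, and in 7 of 10 in YUMM1.7. In cDC1 it stood at 23.6, 52.2 and 86.1 CPM, which is 2.21-fold (95% interval 1.73 to 2.85) and 3.65-fold (2.87 to 4.68) the naive level. In cDC2 it stood at 66.9, 116 and 179 CPM, or 1.73-fold (1.60 to 1.88) and 2.67-fold (2.46 to 2.90). Non-classical monocytes had 73.7, 121 and 181 CPM, macrophages 101, 157 and 206 CPM, and CCR7+ migratory dendritic cells 94.0, 142 and 179 CPM, all in the same order of arms. T cells had 62.9, 121 and 122 CPM, with no such step between the tumour arms. The lowest levels in naive were in B cells, with 22.3, 18.2 and 27.8 CPM.

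Among the enzymes of ISG15 conjugation, Usp18, the protease that removes ISG15 and dampens receptor signalling, was higher in 2 classes in YUMM1.7 and 5 in YUMMER1.7. In cDC1 it had 12.9, 19.1 and 42.4 CPM, a 3.28-fold ratio for YUMMER1.7 (2.36 to 4.63), and in NK cells 11, 23 and 21.3 CPM. Herc6, the mouse ISG15 ligase, was higher in 3 classes in YUMM1.7 and in 0 of 10 in YUMMER1.7, and was lower in B cells of YUMM1.7 (66.8, 39.4 and 57.8 CPM; 0.59-fold, 0.456 to 0.758). Parp9 and Dtx3l, which work as a pair in ADP-ribosylation and ubiquitination, moved little: Parp9 was called in 1 class per contrast, and Dtx3l in none, with 118, 137 and 132 CPM in non-classical monocytes. Isg15 was thus called in more classes than Usp18, Herc6, Parp9 or Dtx3l.

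The IFIT proteins bind foreign RNA ends and block its translation. Outside neutrophils and endothelium their levels were highest in classical monocytes, and there YUMM1.7 was the highest arm for each of the 4. Ifit1 had 36.9, 79.9 and 60.9 CPM, Ifit2 59.4, 116 and 84.9 CPM, Ifit3 70.5, 147 and 100 CPM, and Ifit3b 11.6, 23.4 and 16.2 CPM. The YUMM1.7 ratios in these cells were 2.16 (1.85 to 2.54) for Ifit1, 1.96 (1.73 to 2.22) for Ifit2 and 2.09 (1.86 to 2.34) for Ifit3. In cDC2 the order was the other one, with Ifit1 at 14.7, 32.8 and 41.5 CPM and Ifit3 at 20.7, 36.7 and 58.5 CPM, a 2.83-fold ratio for YUMMER1.7 (2.44 to 3.27). Ifit2 in non-classical monocytes had 24.6, 84.0 and 69.3 CPM, the highest YUMM1.7 ratio among called members, 3.42 (2.24 to 5.37). In CCR7+ migratory dendritic cells Ifit3 was low, at 4.26, 2.81 and 2.01 CPM, and its direction turned when cells with a high doublet score were kept. Ifit3 and Ifit3b shared 64 of 64 bases in the promoter stretch compared. Their transcripts were not compared, and the split of reads between them is uncertain.

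Oligoadenylate synthetases make the messenger that activates RNase L on double-stranded RNA. Oas2 in cDC2 had 13, 27.6 and 36.0 CPM, or 2.13-fold (1.78 to 2.54) and 2.77-fold (2.30 to 3.34), and Oas1a there 18.0, 23.2 and 35.9 CPM. Oas1a was called in 2 of 8 classes in YUMM1.7 and 5 of 8 in YUMMER1.7. Its neighbour Oas1g was called in 1 of 3 and 5 of 5, and the split of reads between them is uncertain. Oas1g reached the UMI minimum in more classes in the YUMMER1.7 contrast, where a high YUMMER1.7 level itself helps a class to pass. Its shares in the contrasts are therefore not alike. Oas3 had 57.9, 98.1 and 98.9 CPM in non-classical monocytes and was lower in NK cells of YUMM1.7. Oasl1 and Oasl2, relatives of the family, differed by class. Oasl1 was higher in CCR7+ migratory dendritic cells of YUMMER1.7, with 5.37, 6.64 and 16.1 CPM (3.0-fold, 2.35 to 3.84), against the direction of most members there. Oasl2 had 166, 224 and 197 CPM in classical monocytes, and in NK cells stood at 7.04, 17 and 8.81 CPM.

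The cytosolic sensors start interferon production and are themselves induced by it. Non-classical monocytes held the clearest differences: Ddx58, which encodes RIG-I, had 60.6, 106 and 121 CPM, Ifih1, which encodes MDA5, 87.8, 162 and 152 CPM, and their regulator Dhx58 21.1, 37.9 and 45.5 CPM. Zbp1, the Z-nucleic acid sensor that can trigger necroptosis, had 94.8, 139 and 213 CPM there and was called in 4 of 10 classes in YUMM1.7 and 7 of 10 in YUMMER1.7. In cDC1 Zbp1 had 16.4, 24.8 and 43.1 CPM, a 2.63-fold ratio (1.94 to 3.60) for YUMMER1.7, while its YUMM1.7 difference turned to a log2 ratio of -0.51 with cells thinned to equal depth. Of the AIM2-like receptors, Ifi213 in cDC1 had 4.22, 5.48 and 13.8 CPM and Ifi204 14.6, 16.5 and 35.8 CPM, both called in YUMMER1.7. In the YUMM1.7 contrast Ifi204 was not called, and Ifi213 lay below the UMI minimum there, so it could not be called. The higher YUMMER1.7 level of Ifi213 itself helped it to pass in the other contrast. Ifi209 had 174, 308 and 279 CPM in non-classical monocytes. Eif2ak2, which encodes the kinase PKR, was called in 1 class in YUMM1.7 and none in YUMMER1.7, with 119, 135 and 117 CPM in classical monocytes.

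Other effectors split into members that differed and members that did not. Isg20, an RNA exonuclease, had 13.1, 29.0 and 42.7 CPM in cDC2 (2.21-fold, 1.86 to 2.64, and 3.25-fold, 2.72 to 3.89) and 7.45, 8.82 and 25.8 CPM in cDC1. Rsad2, the viperin gene, had 71.1, 118 and 81.0 CPM in classical monocytes, and its genomic neighbour Cmpk2, a mitochondrial nucleotide kinase, was called higher in no class of this fraction and stood at 21.1, 21.0 and 12.6 CPM in macrophages, called lower in YUMMER1.7. Slfn5, a Schlafen family gene, had 197, 386 and 349 CPM in non-classical monocytes, with 1.97-fold (1.68 to 2.31) and 1.78-fold (1.53 to 2.07) ratios. Bst2, which tethers budding virions, was called higher in 0 and 2 of 10 classes, with 472, 558 and 627 CPM in macrophages. Trim30a, a regulator of inflammatory signalling, had 412, 420 and 333 CPM in classical monocytes and was called in no class of this fraction against naive. Samd9l, which restrains translation, was lower in CCR7+ migratory dendritic cells of YUMMER1.7 at 49.8, 38.4 and 22.8 CPM (0.459-fold, 0.396 to 0.53).

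Among the remaining members, Ifi27l2a, a small mitochondrial membrane protein gene, had the highest single-gene levels in monocytes, at 1507, 2183 and 2079 CPM in the classical and 1062, 1897 and 2028 CPM in the non-classical class. It was higher in 6 and 7 of 10 classes and above its naive level in 10 of 10 in both contrasts. In T cells it had 212, 470 and 626 CPM, or 2.22-fold (2.07 to 2.38) and 2.96-fold (2.78 to 3.15), and in B cells, where no other member was called higher in YUMM1.7, 334, 562 and 650 CPM. Xaf1, a proapoptotic factor, was called in 7 and 6 of 10 classes, with 29.0, 81.7 and 79.5 CPM in non-classical monocytes (2.82-fold, 1.90 to 4.30, and 2.74-fold, 1.89 to 4.11). Rtp4, a chaperone that also inhibits flaviviruses, had 28.2, 50.2 and 72.6 CPM in cDC2. Ifi44 in cDC1 had 8.69, 13.1 and 24.8 CPM, Phf11d in cDC2 17.4, 25.5 and 35.7 CPM, Phf11b in T cells 19.8, 30.9 and 35.0 CPM, and Lgals3bp in cDC1 17.4, 23.4 and 35.5 CPM, a YUMMER1.7 difference that turned to a log2 ratio of -0.87 with thinned cells. Parp14, a mono-ADP-ribosyltransferase, had 273, 319 and 234 CPM in classical monocytes and was called in no class of this fraction against naive.

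The members therefore differed in breadth. Of the 39 measured in the enriched fraction, 28 were called higher in at least 1 class in both tumour contrasts (71.8%) and 34 in either (87.2%), against 14.3% and 36.4% of the 13425 genes that passed in at least 1 class. Among genes that passed in at least 5 classes of each contrast, 25 of 36 members (69.4%) and 13.9% of 9357 genes were higher in both. In 5 or more classes in either contrast stood 12 members (30.8%, against 0.76% of all genes): Isg15, Ifi27l2a, Xaf1, Ifit1, Ifit3, Zbp1, Rtp4, Dhx58, Isg20, Oas1a, Oas1g and Usp18. Without the neutrophil class 9 were left (23.1%, against 0.601%), and Ifit3, Oas1a and Oas1g fell below 5 classes. Counted only over genes that passed in at least 5 classes of each contrast, it was 11 of 36 members (30.6%), against 1.03% of 9357 genes. Oas1g, which passed in 3 classes in YUMM1.7, is not among these 11. Rtp4 was also called lower in B cells and CCR7+ migratory dendritic cells of YUMM1.7. Ifit3 was called lower in CCR7+ migratory dendritic cells of both tumour arms. Another 22 members were called higher in 1 to 4 of the 10 classes. Of these, Bst2, Ddx58, Herc6, Ifit2, Oas3, Oasl1, Slfn5 and Slfn8 were also called lower in at least 1 class. Slfn8 was higher only in NK cells of YUMM1.7 and was lower in CCR7+ migratory dendritic cells of YUMMER1.7. Cmpk2, Dtx3l, Parp14, Samd9l and Trim30a were called higher in none of the 10 classes. Dhx58 was called in 5 classes in each contrast, while Isg20 went from 2 classes in YUMM1.7 to 6 in YUMMER1.7.

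Set directly against each other within the enriched fraction, the tumour arms had the most members called in cDC1 and B cells. Over 11 classes, 40 of 349 member-class pairs (11.5%) were higher in YUMMER1.7 than in YUMM1.7 and 15 (4.30%) lower, against 4.39% and 5.29% of all pairs. In cDC1, 14 of 29 members were higher and none lower, against 2.76% and 3.87% of all genes. Examples are Ifit2, with 5.48 CPM in YUMM1.7 and 24.1 in YUMMER1.7 (4.40-fold, 2.71 to 7.38), Oasl2 (3.37-fold, 1.79 to 6.64), Isg20 (2.93-fold, 1.95 to 4.47) and Usp18 (2.22-fold, 1.66 to 2.98). Oasl2 lay close to the UMI minimum in cDC1, and its higher YUMMER1.7 level itself helped it to pass. These cDC1 were 181 and 123 cells, and the Ifit2 difference from naive turned to a log2 ratio of -0.99 without the 10% of cells with the most member UMIs. In B cells 11 of 28 were higher, against 3.04%, among them Rtp4 at 9.52 and 21.1 CPM and Xaf1 at 19.0 and 36.7 CPM. Classical monocytes had none of 39 higher and 2 lower, against 3.24% and 3.96%.

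The class of neutrophils held 2 clusters that went different ways, so they are given by cluster. In the one led by Cxcr2 and Clec4d, genes of mature neutrophils, 23 of 32 members were higher in YUMM1.7 and 28 of 34 in YUMMER1.7, against 8.0% and 12.8% of all genes. There Isg15 had 543, 994 and 1570 CPM, Ifit1 62.9, 181 and 228 CPM, and Rsad2 208, 417 and 407 CPM, with 636, 365 and 443 cells. In the one led by the granule genes Ngp, Camp and Ltf, with 140, 52 and 203 cells, none of 23 was higher in YUMM1.7 and 2 of 32 in YUMMER1.7, against 3.85% and 10.4%, and Isg15 had 237, 150 and 272 CPM. The cells of the Cxcr2 cluster are shallow, and a stricter filter on cells moved them out of the class.

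Other classes also joined clusters that differed. In macrophages the larger cluster, with 242, 256 and 284 cells, had 22 of 39 members higher in YUMM1.7 and 15 of 38 in YUMMER1.7 (2.86% and 5.11% of all genes), with Isg15 at 76.8, 183 and 223 CPM. Another, with 58, 91 and 69 cells, had 2 of 34 and 5 of 36 higher (8.4% and 8.83%) and Isg15 at 186, 132 and 201 CPM. The remaining macrophages of the class, 5, 31 and 39 cells, formed a cluster too small to compare. Shallow cells with macrophage markers, 1199, 469 and 322 in number, stayed apart and are not in the macrophage values given here. Of these, 236, 166 and 130 cells were deep enough to be thinned to equal depth. Their median was 4, 3 and 3 member UMIs per cell and their mean 6.79, 4.42 and 5.18, so naive was highest, unlike in the macrophage class. T cells of the enriched fraction fell into a cluster led by Cxcr6 and Il23r, a Lef1 cluster and a Foxp3 cluster, with Isg15 at 75.3, 141 and 227 CPM, 37.7, 59.6 and 52.5 CPM, and 83.6, 134 and 129 CPM. Ifi27l2a in the Foxp3 cluster, which marks regulatory T cells, had 699, 1735 and 1848 CPM, against 61.9, 108 and 178 CPM in the Cxcr6 and Il23r cluster. Naive T cells came mostly from the Cxcr6 and Il23r cluster (737 of 1619 cells) and the Lef1 cluster (659), and the mix differed between arms.

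In the CD45-labelled fraction the members did not share 1 direction. For YUMM1.7 against naive, over 6 classes, 14 of 177 pairs (7.91%) were higher and 37 (20.9%) lower, against 5.76% and 5.0% of all pairs. For YUMMER1.7, over 5 classes, 22 of 148 (14.9%) were higher and 35 (23.6%) lower, against 9.64% and 10.6%. Plasmacytoid dendritic cells were higher, plasma cells and NK cells lower, and B cells nearly level. Endothelial and fibroblastic cells were too few in the naive library and could be compared only between the tumour arms.

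**Figure D3:**
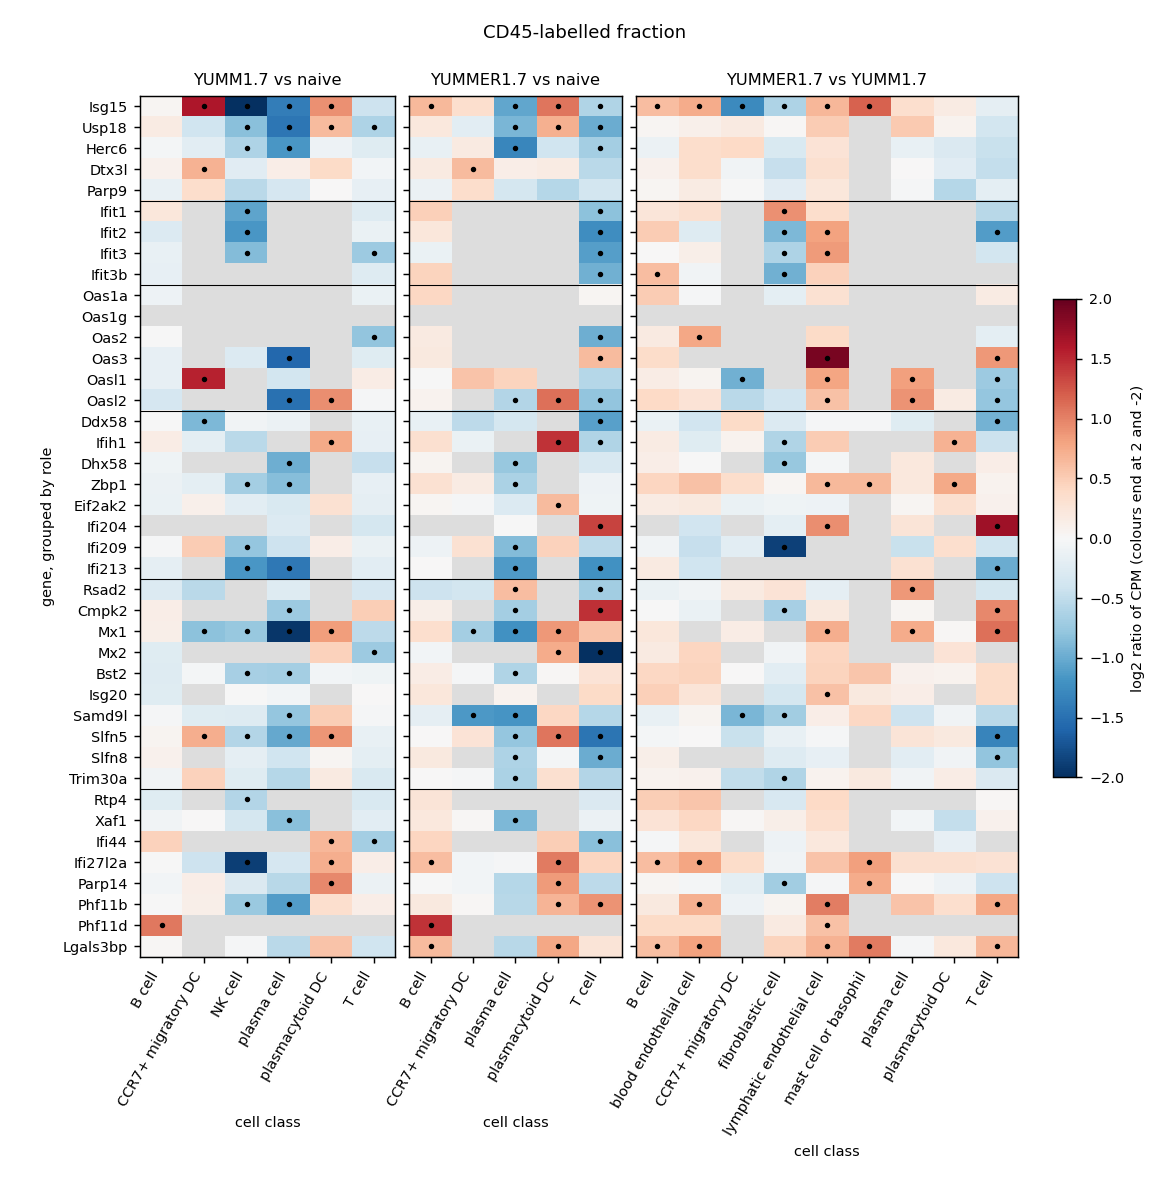
Log2 ratios of CPM for each member and class of the CD45-labelled fraction, in the 3 contrasts of arms; dots mark a fold of at least 1.5 in either direction, grey cells had fewer than 50 UMIs, and classes with fewer than 50 cells in a library are left out. Plasmacytoid dendritic cells hold higher members, plasma cells and NK cells lower ones, and lymphatic endothelial cells are higher in YUMMER1.7 than in YUMM1.7.

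In plasmacytoid dendritic cells, 9 of 21 members were higher in YUMM1.7 and 12 of 21 in YUMMER1.7, and none was lower, against 5.35% and 5.61% of all genes higher and 6.38% and 8.59% lower. Isg15 had 50.3, 94.9 and 106 CPM, with ratios of 1.88 (1.40 to 2.56) and 2.11 (1.56 to 2.87). Slfn5 had 68.1, 125 and 143 CPM, Ifi27l2a 440, 725 and 907 CPM, and Ifih1 16.3, 27.5 and 44.5 CPM. Bst2, whose product is a surface marker of these cells, stood at 3783, 3641 and 3828 CPM, the highest level of a member in any class named here and level across arms. The cells were 149, 161 and 116.

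Mx1 and Mx2, the dynamin-like GTPases that block influenza and related viruses, have values only in this fraction. C57Bl/6 mice are known to carry a defective Mx1 allele, and the annotation lists Mx2 as a polymorphic pseudogene, so the values are RNA levels. Mx1 in plasmacytoid dendritic cells had 37.0, 66.0 and 67.2 CPM, with ratios of 1.78 in YUMM1.7 and 1.82 (1.26 to 2.63) in YUMMER1.7, and the YUMM1.7 difference turned to a log2 ratio of -0.042 with thinned cells. CCR7+ migratory dendritic cells had the highest Mx1 level, 155, 87.8 and 97.2 CPM, and there it was lower in both tumour arms (0.567-fold, 0.485 to 0.661, and 0.628-fold, 0.54 to 0.729). Isg15 in the same cells had 35.0, 107 and 44.3 CPM, which is 3.06-fold (2.43 to 3.89) in YUMM1.7. Mx2 had 17, 23.4 and 28.3 CPM in plasmacytoid dendritic cells, called higher in YUMMER1.7, and 10.3, 8.67 and 9.87 CPM in B cells, where it was not called.

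Plasma cells, which secrete antibody, had 15 of 29 members lower in YUMM1.7 and 16 of 28 in YUMMER1.7, against 5.44% and 6.71% of all genes. Isg15 had 108, 41.6 and 52.4 CPM and Mx1 13, 3.37 and 5.63 CPM. One of their clusters held 58 of 210 naive, 424 of 784 YUMM1.7 and 208 of 371 YUMMER1.7 cells. Within it 13 of 23 and 10 of 19 were lower (6.64% and 7.55% of all genes), and within the other 8 of 19 and 1 of 20 (5.35% and 9.08%). The mix of the clusters differed between arms, and its part in the class counts was not tested. NK cells had 15 of 28 members lower in YUMM1.7, against 8.49%, with Isg15 at 87.8 and 17.1 CPM (0.195-fold, 0.119 to 0.305) and Ifi27l2a at 321 and 87.3 CPM. The YUMMER1.7 library held fewer than 50 NK cells of this fraction.

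B cells, the largest class at 5564, 3901 and 2181 cells, had 1 member higher in YUMM1.7 and 4 in YUMMER1.7 of 39, against 3.91% and 4.22%. Ifi27l2a had 481, 481 and 738 CPM, Isg15 21.0, 21.6 and 33.2 CPM, and Phf11d 1.53, 3.19 and 4.16 CPM. Most naive B cells lay in 2 clusters that held 2450 and 2260 of them, while 1648 of the 2181 YUMMER1.7 B cells lay in another cluster that held 132 naive cells. T cells had none of 39 higher and 5 lower in YUMM1.7, against 3.66% and 3.73%, and 4 higher and 17 lower in YUMMER1.7. In that last contrast 24.9% of all genes were lower and 14.9% higher, and a deep cycling cluster made up 134 of 306 cells, against 193 of 2793 in naive. Within the largest other T cell cluster 5 of 32 members were higher and 1 lower, against 5.86% and 17%.

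Lymphatic endothelial cells, which line the node's sinuses, had 13 of 38 members higher in YUMMER1.7 than in YUMM1.7 and none lower, against 3.23% and 4.95% of all genes. Over all 9 classes compared, 40 of 268 pairs (14.9%) were higher and 21 (7.84%) lower, against 5.01% and 6.88%. In lymphatic endothelium, Isg15 had 271 CPM in YUMM1.7 and 429 in YUMMER1.7 (1.58-fold, 1.47 to 1.7), Ifit2 64.8 and 113 CPM, Zbp1 162 and 252 CPM, and Lgals3bp 96.4 and 156 CPM. Blood endothelial cells had 5 of 37 higher (5.71%), with Isg15 at 111 and 185 CPM and Ifi27l2a at 130 and 226 CPM. Fibroblastic cells went the other way, with 1 of 35 higher and 11 lower, against 3.79% and 9.06%. Isg15 in them had 55.6 and 36.4 CPM and Ifi209 8.57 and 2.36 CPM, while Ifit1 was the member called higher, at 16.7 and 31.4 CPM. Without the 10% of cells with the most member UMIs both turned direction, to log2 ratios of 0.36 for Isg15 and -0.60 for Ifit1. In cells with mast cell or basophil markers, 5 of 10 were higher (9.52%), and Isg15 had 193 and 438 CPM.

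To compare single cells at equal depth, each cell was thinned to 2000 UMIs, leaving out shallower cells. The median number of member UMIs per cell in classical monocytes was then 10, 13 and 12, in non-classical monocytes 5, 10 and 11, in macrophages 6, 8 and 9, and in cDC2 3, 3 and 5. In non-classical monocytes 6.75% of naive cells had no member UMI (exact 95% interval 3.42% to 11.8%), and 0 of 162 and 0 of 219 cells in the tumour arms, which allows shares of up to 1.85% and 1.37% taken as 3 cells of the total, or 2.25% and 1.67% as exact 95% upper limits. In cDC2 the share without a member UMI was 13.8%, 6.53% and 3.32%, and the 90th percentile was 9, 12 and 14 UMIs. cDC1 differed in shape: the median was 2, 2 and 3 UMIs and the 99th percentile 10, 11 and 27. The 10% of cDC1 with the most member UMIs held 28.5%, 30.5% and 39.8% of them. CCR7+ migratory dendritic cells had a median of 3 in each arm of the enriched fraction and of 2 in each arm of the CD45-labelled fraction.

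**Figure D4:**
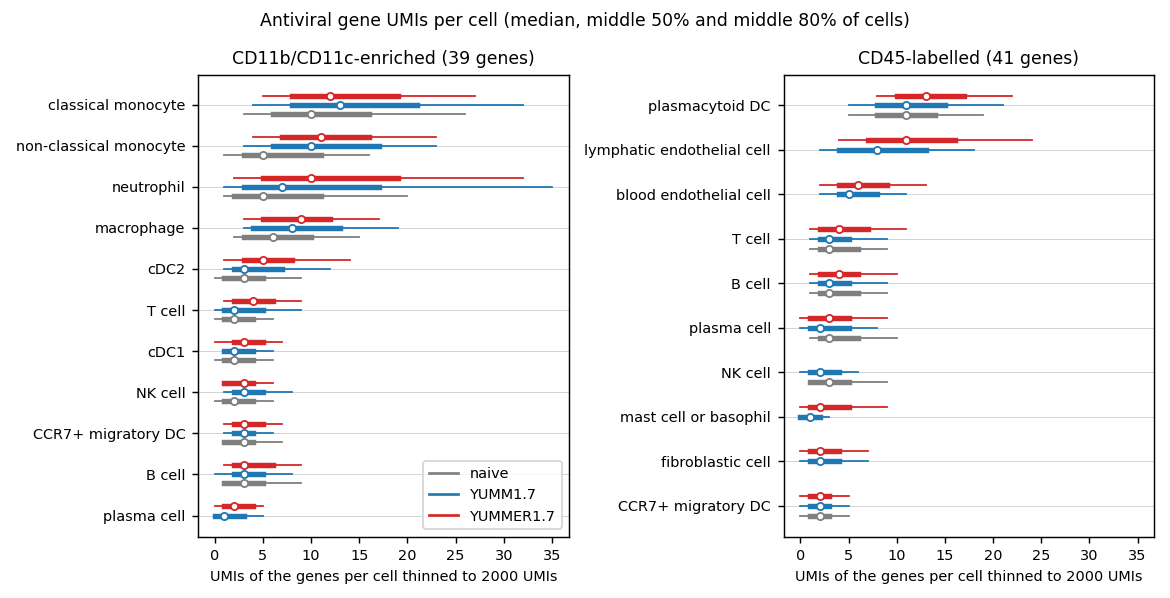
Member UMIs per cell after thinning to 2000 UMIs, by class and arm, as the median with the 10th, 25th, 75th and 90th percentiles. Non-classical monocytes go from a median of 5 in naive to 10 and 11, whereas CCR7+ migratory dendritic cells of the enriched fraction have 3 in each arm.

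Members also differed in how they were spread over the cells of 1 class and library. Cells were ranked by the UMIs of all other members, and each member's level in the upper 10% was divided by its level in the rest. This is a description within groups of cells. The median of this fold over groups was 23.9 for Ifit3 (14 groups, 7.82 to 46.1), 22.9 for Ifit3b (4 groups), 15.8 for Ifit1 (10 groups, 9.0 to 55.9), 13.3 for Ifit2 and 9.36 for Rsad2. It was 5.65 for Isg15 (31 groups, 2.58 to 14.9). At the low end stood Oas1g at 1.8 in its 1 group, Samd9l at 2.12, Lgals3bp at 2.14, Ifi27l2a at 2.29, Bst2 at 2.31, Dtx3l at 2.39, Ddx58 at 2.51, Parp9 at 2.56, Dhx58 at 2.57 and Trim30a at 2.58 (46 groups). In naive B cells of the CD45-labelled fraction, Ifit1 had 56.3 CPM in 497 cells and 1.01 CPM in the other 4465. The medians of the Ifit genes thus lay above those of Samd9l (30 groups) and Bst2 (48 groups). Only groups with at least 50 UMIs of the gene after thinning were used, so these medians rest on different groups. A comparison within the same groups was not made. Mx1 had 95.9 CPM in the upper B cells of YUMM1.7 and 3.12 in the rest. In naive migratory dendritic cells it had 121 CPM in the upper 10% and 187 in the rest, from 7 and 94 UMIs, and the fold was also below 1 in the other two arms, from 4 and 2 UMIs in the upper cells.

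**Figure D5:**
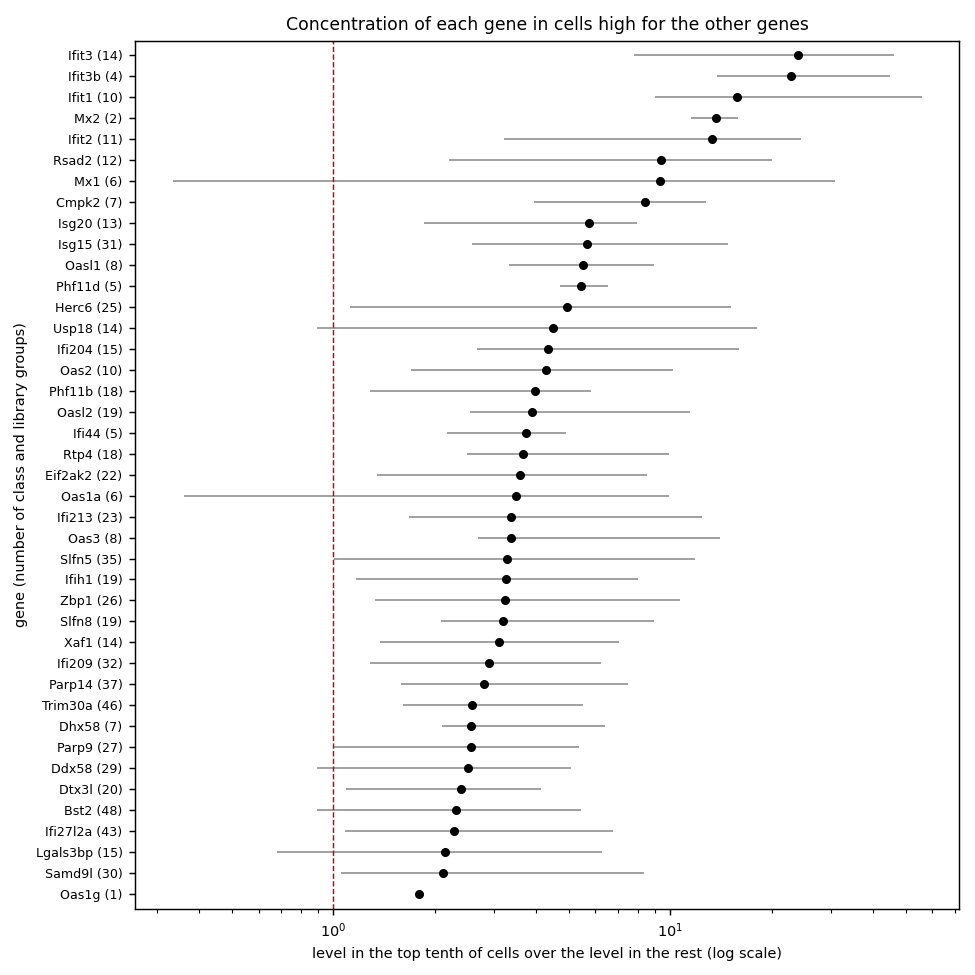
For each member, the level in the 10% of cells with the most UMIs of the other members divided by the level in the remaining cells, on a log axis; each point is the median over groups of 1 class in 1 library, the line runs from the lowest to the highest group, the number of groups stands beside the name, and the dashed line marks equal levels. Ifit3, Ifit3b and Ifit1 have the highest medians (23.9, 22.9 and 15.8), Mx1 has the widest span (0.333 to 30.8), and Oas1g (1.8, 1 group) and Samd9l (2.12) the lowest.

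Of the pathway around the members, 17 interferon ligand genes were listed and only Ifng reached 50 UMIs in any class, in T and NK cells. Ifng in NK cells of the enriched fraction had 235, 271 and 280 CPM, and in T cells of the CD45-labelled fraction 14.8, 9.24 and 41.5 CPM, the last from the library with many cycling cells. Ifnb1, the gene of interferon beta, had at most 0.876 CPM in any class of the enriched fraction. The receptor gene Ifnar1 stood at 93.2, 81.6 and 75.9 CPM in cDC2 and was not called there. Of the 8 transcription factors, Irf7, which amplifies interferon production and is itself induced by it, was higher in cDC1 at 31.8, 48.6 and 86.1 CPM (1.53-fold, 1.22 to 1.92, and 2.71-fold, 2.18 to 3.38). In cDC2 it had 32.1, 55.6 and 75.4 CPM, in macrophages 128, 205 and 262 CPM, and in lymphatic endothelium 78.5 CPM in YUMM1.7 and 137 in YUMMER1.7. Stat2 was higher in non-classical monocytes in both tumour arms, with 56.2, 110 and 96.7 CPM. Irf9 had 50.5, 60.2 and 70.7 CPM in cDC2.

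Related families did not all move with the members. Of 5 Ifitm genes that passed in cDC2, 4 were higher in both tumour arms (5.95% and 9.63% of all genes), with Ifitm3, which blocks viral entry, at 621, 983 and 1241 CPM. Of the GBP and IRG genes, the GTPases induced mainly by interferon gamma, 15 of 21 passed in cDC2. None of them was higher there, and 4 were lower in YUMM1.7 and 2 in YUMMER1.7, against 8.08% and 10.6% of all genes, so that the latter count is near the background. In lymphatic endothelium 8 of 18 were higher in YUMMER1.7 than in YUMM1.7, against 3.23%. Of the 21 genes listed for MHC class I presentation, whether they passed or not, 6 were higher and 2 lower in non-classical monocytes of YUMMER1.7, against 7.0% and 9.32%. Only this class and contrast are given for that list. Socs3, an inhibitor of cytokine receptor kinases picked from the listed feedback genes, was higher in 7 enriched classes of YUMMER1.7. Of all genes, 0.76% were higher in at least 5 enriched classes in either tumour contrast. The other feedback genes are not described here. Ifitm genes in B cells of the CD45-labelled fraction rest on low levels (Ifitm3 at 13.3, 44.7 and 75.8 CPM) in libraries whose Ccl21a differed in the same order, and the part of RNA from other cells was not tested. Of 20 dissociation and heat shock genes, 2 were higher and 9 lower in cDC1 of YUMMER1.7 (5.94% and 8.2% of all genes), beside the 14 members that were higher there, and their part was not tested.

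Where a class was present in both fractions, the fractions could be set side by side, though their libraries and bead selection differ. T cell members summed to a log2 ratio of 0.43 (YUMM1.7) and 0.60 (YUMMER1.7) in the enriched fraction and -0.075 and -0.076 in the other, and the last value turned to 0.23 when cells were thinned to equal depth. Such sums rest on a few abundant members. Without Bst2, Isg15 and Ifi27l2a the T cell values were 0.22 and 0.32, and -0.18 and -0.45. NK cells had 0.37 in YUMM1.7 against -0.67, and without those genes 0.38 against -0.46. B cells summed to -0.07 and -0.05 in YUMM1.7 and to 0.18 and 0.17 in YUMMER1.7. Without those genes enriched B cells had -0.29 and -0.06. Keeping doublets turned the enriched YUMM1.7 value to 0.20. Migratory dendritic cells stayed within 0.1 of 0 in both fractions, at -0.02 and 0.08 enriched and 0.08 and -0.05 in the other. The T and NK clusters of the fractions were made of different cells, the enriched T cells being those that came with CD11b or CD11c selection, so the difference between fractions was not tested.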

How the data were processed

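Gene-by-cell UMI counts of 6 libraries (2 fractions, 3 arms) were used as deposited by the authors. Per the submitters' processing notes they were made with Cell Ranger 8.0.1 on mm10; per the file headers the CD45-labelled libraries carry 7.0.0 and the enriched ones 8.0.1, with different feature lists, so the fractions were kept apart. Cells had at least 500 UMIs, 300 genes and at most 10% mitochondrial UMIs. The 5% of cells with the highest doublet score per library were removed, since an automatic threshold marked 0% in some libraries. Cells of a fraction were clustered jointly (scanpy 1.11.5, 2000 variable genes, 30 components, 15 neighbours, Leiden resolution 1) without interferon genes, and clusters were named from marker lists. Clusters under 1/3 of their library's median UMIs stayed apart. Intervals of CPM values are exact Poisson, and those of ratios exact conditional binomial (95%, scipy 1.17.1). Steps were tested on simulated data.

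Members, lists and rules were chosen with earlier results of these data known. Members were named by their highest, lowest and most frequent calls, and further levels were chosen after seeing the values, as were details of cluster naming. Alternatives changed the cell filter, depth, fold, UMI minimum, scaling, clustering, doublet removal and the cells with most member UMIs. 1 gene of the transcription factor list is not reported here.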

Additional observations from a re-analysis of the deposited data

Results flagged for a closer look

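In 5 instances the summed member CPM of 1 class differed between arms in opposite directions in the 2 fractions, counted where both 95% counting intervals excluded 0. Each value is a log2 ratio from 1 library per arm, and none of these differences was tested. For YUMM1.7 against naive, NK cells had 0.37 in the enriched and -0.67 in the CD45-labelled fraction, and T cells 0.43 and -0.075. For YUMMER1.7 against naive, T cells had 0.60 and -0.076. For YUMMER1.7 against YUMM1.7, CCR7+ migratory dendritic cells had 0.10 and -0.13, and plasma cells -0.21 and 0.16. Without Bst2, Isg15 and Ifi27l2a the migratory dendritic cells had 0.017 and -0.093, and the interval of the enriched value (-0.019 to 0.052) then held 0. Plasma cells had -0.56 and 0.061 without those genes. With cells thinned to 2000 UMIs the T cells of the CD45-labelled fraction had 0.23 for YUMMER1.7 against naive, the direction of the enriched fraction. The NK cells of the CD45-labelled fraction numbered 362 and 153.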

How the results depend on the processing

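Counts of member-class pairs called higher are given in the order YUMM1.7 against naive, YUMMER1.7 against naive, and YUMMER1.7 against YUMM1.7. Of 78 values of these 6 counts, 61 stayed within 1.5 times the reported one. At a fold of 5/4 the enriched counts were 173, 181 and 86 and the CD45-labelled ones 24, 38 and 84, and at a fold of 2 they were 20, 48 and 11, and 3, 8 and 6. With at least 100 UMIs, YUMMER1.7 against YUMM1.7 in the enriched fraction had 26. With cells thinned to 2000 UMIs, which lets fewer members pass, that count was 20, and the CD45-labelled counts were 2, 5 and 16. Adding the shallow clusters to their classes, an alternative chosen after seeing the data, changed no count by over 1.5 times. Over every called member, 3555 of 4068 values under the alternatives moved little, 437 moved and 76 turned direction. Of 459 summed levels, 275 stayed within their counting interval and 184 moved. Of members named here, thinning turned Zbp1 in cDC1 (YUMM1.7, log2 ratio -0.51), Lgals3bp in cDC1 (YUMMER1.7, -0.87) and Mx1 in plasmacytoid dendritic cells (YUMM1.7, -0.042). Keeping doublets turned Ifit3 in enriched migratory dendritic cells (0.80 and 0.051 in the tumour arms). Leaving out the 10% of cells with most member UMIs turned it too (YUMM1.7, 0.24), as well as Ifit2 in cDC1 (YUMMER1.7, -0.99) and, in fibroblastic cells, Isg15 (0.36) and Ifit1 (-0.60). The cause was not tested. Summed member levels that turned direction were those of neutrophils as 1 class (-0.22 and -0.18 in the tumour arms under the stricter filter), classical monocytes (YUMMER1.7 against naive, -0.046 under that filter and -0.022 at a Leiden resolution of 0.5), T cells of the CD45-labelled fraction (YUMMER1.7 against naive, 0.23 thinned), enriched B cells (YUMM1.7 against naive, 0.20 with doublets kept) and enriched plasma cells (YUMMER1.7 against YUMM1.7, 0.26 at that resolution), among others close to 0. Size factors departed from the CPM scale by over 0.1 (log2) between arms in neutrophils (0.052, 0.082 and -0.13), in B cells of the enriched fraction (0.076, -0.010 and -0.062) and in plasma cells of the other (-0.078, 0.054 and 0.029), in the order naive, YUMM1.7, YUMMER1.7. Depth limits low members: those under 50 UMIs were not read. No paired analysis was possible because each group is 1 library.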
